A study of Mus musculus with 9 samples.

Results

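The genes described here encode 10 antioxidant enzymes, Sod1, Sod2, Cat, Gpx1, Gpx4, Prdx2, Prdx3, Prdx5, Nqo1 and Hmox1, and were followed in RNA-seq counts of the cerebellum of 9 transgenic mice. They were chosen by name from the 37816 genes of the count table, and all 10 were found and passed the filter on low counts. All 9 C57BL/6 mice carried a yeast artificial chromosome with human ATXN3, the gene whose expanded CAG tract causes spinocerebellar ataxia type 3 (SCA3), and were 18 months old at harvest. The 15Q group (n = 3) had 15 CAG repeats, the 84Q group (n = 3) had 84, and the 84Q+IGF-1 group (n = 3) had 84 and received 50 mg/kg IGF-1 into the peritoneum weekly from 9 months of age until harvest. The treatment protocol gives PBS (0.01 M) for the other mice, whereas their treatment label reads untreated. The 15Q and 84Q lines were obtained from different sources, so the repeat length and the origin of the line cannot be told apart. The tissue was bulk cerebellum, in which fewer cells of a type and less RNA per cell cannot be told apart.

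Antioxidant enzymes act in sequence. Superoxide dismutases turn superoxide, a by-product of mitochondrial respiration, into hydrogen peroxide, which catalase, the glutathione peroxidases and the peroxiredoxins then reduce to water. Glutathione and thioredoxin supply the electrons and are themselves reduced with NADPH, while Nqo1 and Hmox1 are classical targets of the transcription factor NRF2 (Nfe2l2), which binds antioxidant response elements when its inhibitor Keap1 lets it go.

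The libraries held between 17482654 and 58269196 counts on genes, and the median total was higher in 15Q (40249019) than in 84Q (22808219) and 84Q+IGF-1 (26914560). Every member was well above the floor of 3 counts. The lowest count was 80, for Hmox1 in 84Q replicate 3, and the highest was 11270, for Sod2 in 15Q replicate 3. Any pair of replicates differed beyond counting noise: a chi-square of their counts came to 9.58 to 16.1 per gene, against about 1 for repeated counts of the same library. The labels call them separate samples of a group, and p-values measure the spread between these samples.

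Cerebellar markers were present at high levels in every library: the 7 granule cell markers summed to between 5277 and 6141 CPM (counts over the TMM-adjusted total of a library), led by Cbln3, and the 7 Purkinje cell markers to between 6049 and 6783 CPM, led by Itpr1. In the 11 choroid plexus markers, led by Ttr, 3 libraries stood apart: the sum was 517 CPM in 15Q replicate 1, 510 CPM in 15Q replicate 3 and 1073 CPM in 84Q replicate 2, against 18.1 to 51.0 CPM in the other 6 libraries. Markers of tissues outside the brain were higher in 15Q. The 10 intestinal epithelium markers summed to 23.4 to 35.9 CPM in 15Q and to 4.998 to 6.50 CPM in the 6 other libraries, and the 8 liver markers to 6.09 to 12.8 CPM against 0.548 to 2.28 CPM. The liver markers Cyp3a11 and Fgb were at 0 in all libraries of 84Q and 84Q+IGF-1, as were the intestinal markers Fabp2 and Reg3g. The 6 skeletal muscle markers, led by Acta1, summed to 12.9 to 19.5 CPM in 15Q and to 1.71 to 3.07 CPM in the others, and the 8 epidermis markers, led by Sbsn, to 34.3 to 47.8 against 18.6 to 25.6 CPM. In 84Q against 15Q, 5 of 6 tested intestinal, 3 of 5 liver, 3 of 6 epidermis and 6 of 6 muscle markers were called lower in edgeR, with a fold of at least 1.5 and an adjusted p under 0.1. Over all genes, 2.14% were called at these thresholds in either direction. The macrophage markers Cd163 (log2 fold change -0.93; adjusted p = 0.0452) and Mrc1 (-0.82; 0.0748) were lower in 84Q and 84Q+IGF-1 together. Astrocyte markers, led by Slc1a3, summed to between 2539 and 3046 CPM and endothelial markers, led by Flt1, to between 244 and 273 CPM, but single markers moved apart from these sums. With both groups together against 15Q, 3 of 7 astrocyte markers were lower at an adjusted p under 0.1 in edgeR, with log2 fold changes of -0.23 for Aqp4 (0.0538), -0.36 for Gdf10 (0.0727) and -0.30 for Slc4a4 (0.0575), while Slc1a3 was at 0.40 (0.217). Of 6 endothelial markers 2 were lower, Slco1a4 at -0.26 (0.0904) and Cdh5 at -0.22 (0.0823), while Cldn5 was at 0.37 (0.212) and Ly6c1 at 0.16 (0.411). Over all genes, 6.11% were lower in the same comparison at an adjusted p under 0.1. Red blood cell markers, led by Hba-a1, summed to 213 CPM in 15Q replicate 2 and to 24.6 to 84.2 CPM elsewhere. The part of these RNAs in the results given for the antioxidant enzymes was not tested, and values without the libraries high in choroid plexus markers stand beside the results.

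**Figure D1:**
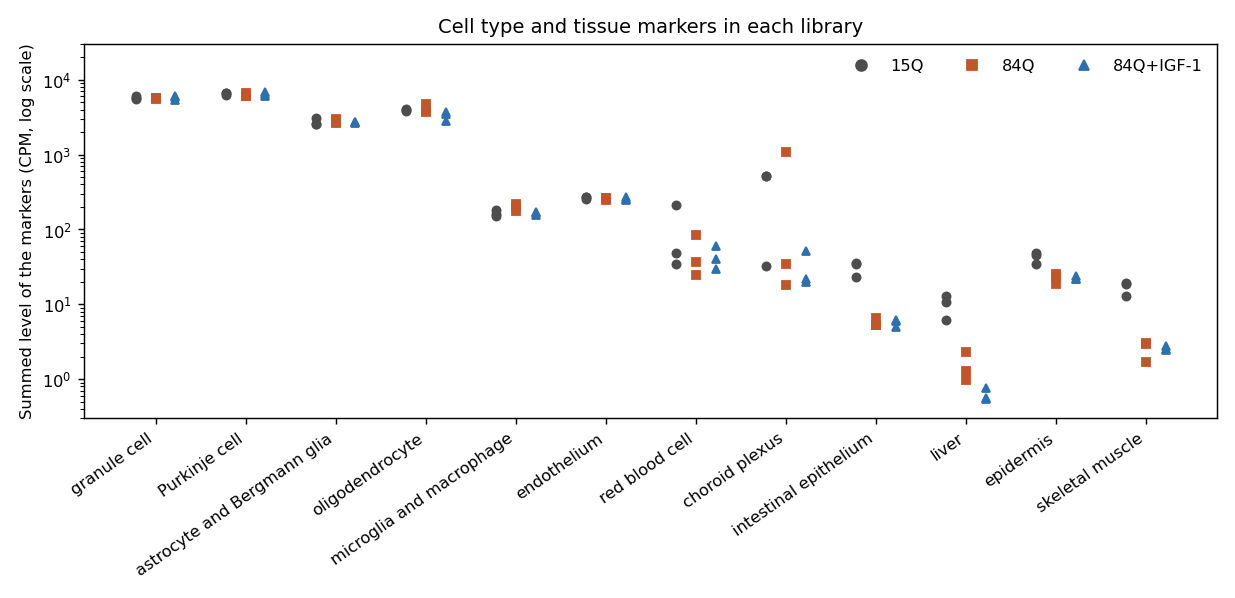
Summed levels (CPM, log scale) of each list of cell type or tissue markers, with 1 point per library and the groups marked by colour and shape. The choroid plexus sum is high in 15Q replicates 1 and 3 and in 84Q replicate 2 (510 to 1073 CPM), and the intestine, liver, epidermis and muscle sums are higher in all 3 15Q libraries than in the 6 others.

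Levels of different genes were compared per length, as TPM (counts divided by the length of a gene's combined exons, scaled to the same total in each library). Gpx4, the peroxidase that reduces lipid peroxides within membranes, had the highest level, with a mean of 306 TPM ± 25.9 (SD, n = 9 libraries). Prdx5, a peroxiredoxin of mitochondria, peroxisomes and cytosol, followed with 172 TPM ± 13.0, and neither overlapped its neighbours in the order. The next 6 lay close together: Sod1 at 96.3 TPM ± 6.41, Prdx2 at 93.3 ± 9.55, Cat at 77.9 ± 8.33, Sod2 at 77.5 ± 2.31, Prdx3 at 68.7 ± 4.72 and Gpx1 at 66.5 ± 3.43 TPM. Each of these overlapped the next in its range over the libraries, so neighbours in this order are not separated by range, though Sod2 was above Prdx3 in all 9 libraries. Members further apart were separated: all libraries of Sod1 (87.1 to 105 TPM) lay above those of Sod2, Prdx3 and Gpx1, and all of Prdx2 (79.3 to 104 TPM) above those of Prdx3 and Gpx1. Sod2 (74.5 to 81.4 TPM) lay above Gpx1 (61.8 to 73.3 TPM), while Cat (65.7 to 88.2 TPM) overlapped each of the other 5. Nqo1 (17.6 TPM ± 2.60) and Hmox1 (10.2 TPM ± 1.43) were the lowest and did not overlap each other. With the longest transcript as the length, Gpx4 (422 TPM), Prdx5 (161 TPM), Nqo1 (14.0 TPM) and Hmox1 (9.04 TPM) kept their places at the ends, whereas Sod2 (105 TPM) stood above Sod1 (76.6 TPM) and Prdx2 was at 140 TPM.

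**Figure D2:**
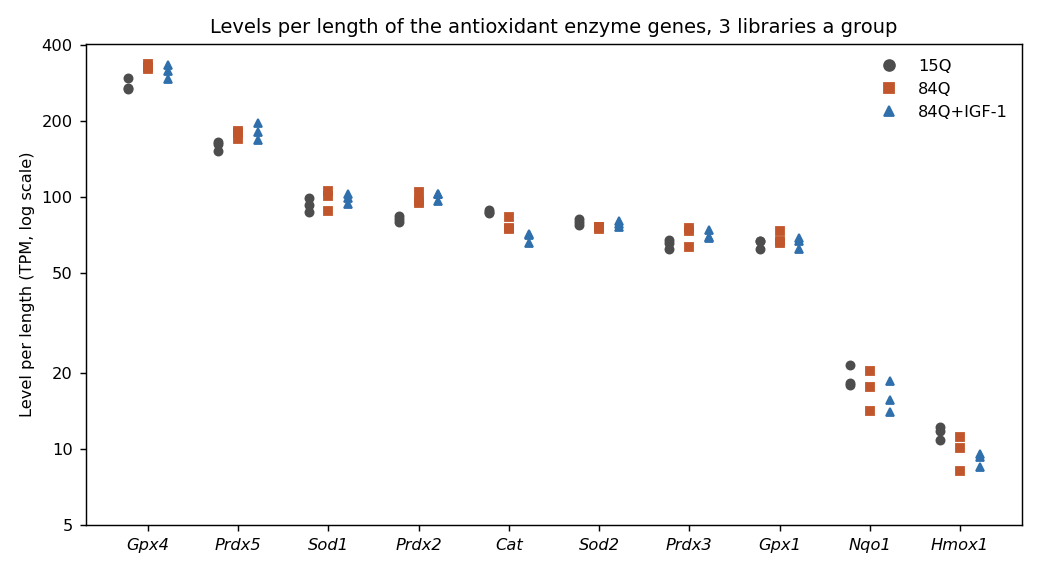
Level per length (TPM, log scale) of the 10 antioxidant enzyme genes, ordered by their mean over the 9 libraries, with 1 point per library and 3 libraries a group. Gpx4 is highest at a mean of 306 TPM and Hmox1 lowest at 10.2 TPM, and 6 genes lie between 66.5 and 96.3 TPM.

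Some of these levels share sequence with other genes. Of the 31-base words in the exons of Gpx4, 38.9% also occur in other genes, nearly all of them in the pseudogene Gpx4-ps2 (2.83 CPM), and of those of Prdx2, 7.4% do, mainly in Tdpx-ps1 (2.13 CPM). For Sod2 the share was 26.6%, most of it (22.0% of the words) in a single long noncoding RNA gene, with matches in 1242 genes in all. The one of these with the highest level, Snhg11, had 2560 CPM, against 194 CPM for Sod2. For Sod1 it was 5.4%, and for the other 6 members it was 0. Sod1 overlaps Scaf4 (86.4 CPM), Prdx2 overlaps Junb and Rnaseh2a, and Prdx5 overlaps Trmt112, in each case on the opposite strand. The library kit keeps the strand, but the strand setting of the counting is not given in the sources used here.

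Start-site windows are given for the genes that differed in opposite directions, Prdx2 and Cat, and for Sod1, the single member with an antioxidant response element core in its window. The windows run from 250 bases before to 50 bases after the start, come from RefSeq in GRCm38.p6 and are written 5′ to 3′ on the gene's strand, with the searched motifs in capitals: the antioxidant response element core TGACNNNGC, the CCAAT box and the GC box GGGCGG, each on both strands. The Prdx2 window is chr8:84969372-84969671 (plus strand), the Cat window chr2:103485104-103485403 (minus strand) and the Sod1 window chr16:90220512-90220811 (plus strand).
Prdx2: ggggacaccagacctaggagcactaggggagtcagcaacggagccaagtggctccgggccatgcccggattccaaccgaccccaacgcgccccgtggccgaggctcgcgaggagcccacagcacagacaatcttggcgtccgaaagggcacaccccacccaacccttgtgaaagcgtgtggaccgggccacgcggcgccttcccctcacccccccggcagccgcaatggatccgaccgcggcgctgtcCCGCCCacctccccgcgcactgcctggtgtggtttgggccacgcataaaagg
Cat: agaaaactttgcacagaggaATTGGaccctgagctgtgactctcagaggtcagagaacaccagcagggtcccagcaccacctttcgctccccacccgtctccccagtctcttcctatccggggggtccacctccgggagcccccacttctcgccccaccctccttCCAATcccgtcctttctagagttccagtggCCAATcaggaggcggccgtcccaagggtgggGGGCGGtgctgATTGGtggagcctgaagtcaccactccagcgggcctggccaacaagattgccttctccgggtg
Sod1: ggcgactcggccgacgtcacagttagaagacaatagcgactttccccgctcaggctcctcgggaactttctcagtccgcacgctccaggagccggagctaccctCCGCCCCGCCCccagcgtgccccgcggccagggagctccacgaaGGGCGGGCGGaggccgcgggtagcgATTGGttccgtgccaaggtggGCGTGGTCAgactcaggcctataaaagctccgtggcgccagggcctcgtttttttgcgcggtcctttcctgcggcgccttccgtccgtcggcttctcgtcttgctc
The Prdx2 window holds 1 GC box, 2 bases before the start, and neither of the other motifs. The Cat window holds 4 CCAAT boxes, between 230 and 13 bases before the start, and 1 GC box. The Sod1 window holds the antioxidant response element core 56 bases before the start, along with 1 CCAAT box and 4 GC boxes, some of which overlap each other. Windows were found for 9 of the 10 members, all but Hmox1. Of these, 1 had the antioxidant response element core, 4 had a CCAAT box and 9 had a GC box in at least 1 window. Counted per window, 1, 6 and 11 of the members' 12 windows had these motifs, against 12.4%, 37.4% and 35.7% of all 32851 windows. G and C made up 47.0 to 68.7% of the letters in the members' windows, and the median over all windows was 52.7%. These matches describe letters in a short window and were not tested as binding sites.

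In 84Q against 15Q, the comparison of the expanded with the short repeat, the members that differed were peroxidases and both were higher in 84Q: Prdx2 by 1.245-fold and Gpx4 by 1.22-fold. The test was the quasi-likelihood test of edgeR on all 9 libraries, with Benjamini-Hochberg adjustment over 19353 genes, and a gene passed at an adjusted p under 0.1. These 2 of 10 members were higher and 0 were lower, where 4.8% of all genes passed, 1.54% higher and 3.25% lower. With the fold of 1.5 that the study's methods add, 0 of 10 members were called and 2.14% of all genes were. The 3 libraries of one group lay all above those of the other for 4 members (Gpx1, Gpx4, Prdx2 and Prdx5, higher in 84Q) and all below for 1 (Cat), while 25.4% of all genes had such separate groups. The median log2 fold change was 0.12 over the members and -0.002 over all genes tested. The latter varied with exon length, with medians of 0.05 for genes of 1000 to 2000 bases, 0.06 from 2000 to 3000, 0.04 from 3000 to 5000 and -0.05 above 5000. All members but Sod2 (10008 bases) lie between 1441 and 3970 bases, where these medians are above 0, and the part of length in their values was not tested. Of the 10 microglia and macrophage markers, 2 were higher at an adjusted p under 0.1 in the same comparison, among them Csf1r at 0.37 (adjusted p = 0.0271). Log2 fold changes of this list ran from -0.74 to 0.42, and 6 of 10 were above 0. The macrophage markers Cd163 and Mrc1 had lower means in 84Q, 2.28 and 3.81 CPM against 3.68 and 6.43 CPM in 15Q. The list summed to 176 to 218 CPM in 84Q and 150.3 to 184 CPM in 15Q. The part of these markers' cells in the levels of Prdx2 and Gpx4 was not tested.

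In 84Q+IGF-1 against 15Q, Prdx2 was again higher, by 1.252-fold, and Cat was lower, at 0.81 of its 15Q level. Thus 1 member of 10 was higher and 1 lower, where 3.67% of all genes passed, 1.04% higher and 2.63% lower. With the fold of 1.5, 0 of 10 were called, against 2.25% of all genes. The groups did not overlap for 3 members that were higher (Prdx2, Prdx3 and Prdx5) and 2 that were lower (Cat and Hmox1), and for 24.7% of all genes. The median log2 fold change was 0.07 over the members and -0.005 over all genes, and 0.03, 0.04, 0.02 and -0.03 over genes in the same 4 ranges of length. This comparison shares its 15Q libraries with the one before, so the values of both are given side by side and their likeness is not a separate result.

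In 84Q+IGF-1 against 84Q, the comparison of IGF-1 with its control, 0 of 10 members passed and 0.0% of all genes did, with or without the fold of 1.5. Over all genes, 905 had an unadjusted p under 0.05 in edgeR, and the DESeq2 Wald test found 7 genes at an adjusted p under 0.1, of which 6 reached the fold of 1.5 and none was a member. The groups did not overlap for 1 member, Cat, which was lower in 84Q+IGF-1, and for 8.48% of all genes. The median log2 fold change of the members was -0.05.

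When 15Q was set against all 6 libraries with the expanded repeat, 3 of 10 members were higher (Prdx2, Gpx4 and Prdx5) and 1 was lower (Cat), where 9.75% of all genes passed, 3.64% higher and 6.11% lower. None reached the fold of 1.5, which 3.51% of all genes did.

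**Figure D3:**
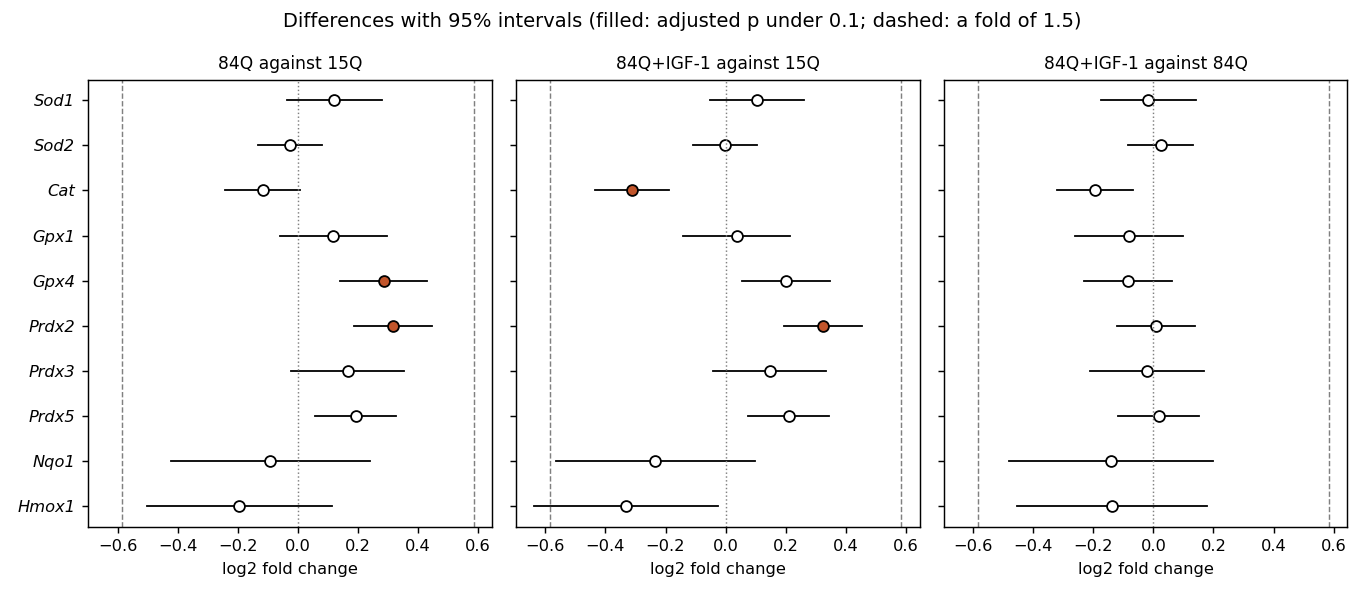
Log2 fold changes of the 10 genes (circles) with their 95% confidence intervals (lines) in 3 comparisons, where filled circles mark an adjusted p under 0.1 and dashed lines a fold of 1.5. Prdx2 lies near 0.32 in both comparisons with 15Q, Cat at -0.31 in 84Q+IGF-1 against 15Q, and no circle is filled in 84Q+IGF-1 against 84Q.

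**Figure D4:**
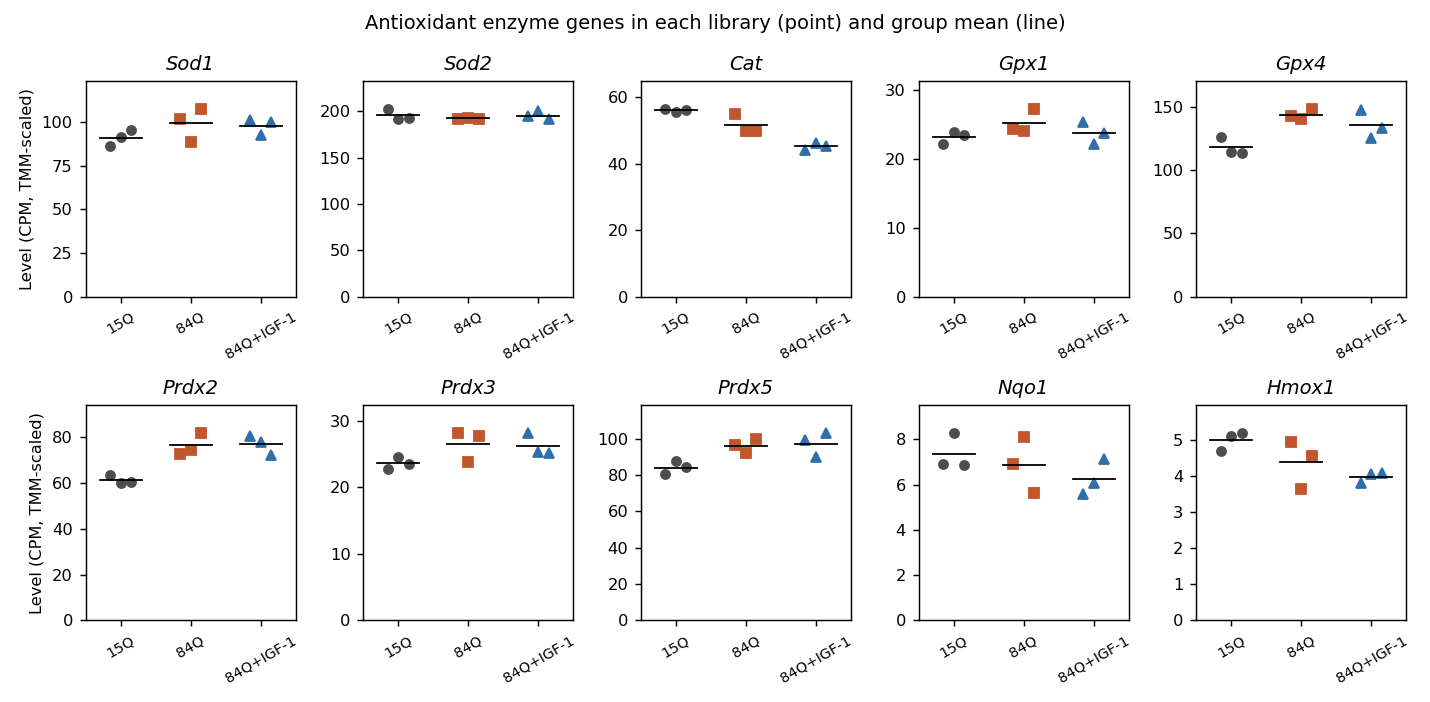
Levels (CPM, TMM-scaled, axes from 0) of each gene in each library (points) with the mean of each group of 3 (lines). The 15Q libraries of Prdx2 lie between 60.0 and 63.5 CPM, below all 6 libraries with the expanded repeat, and those of Cat between 55.7 and 56.4 CPM, above all of them.

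Neither superoxide dismutase passed in any comparison. Gene positions here and in what follows are those of GENCODE vM21 in GRCm38.p6. Sod1 (chr16:90220754-90226329), the cytosolic copper and zinc enzyme, had 85.9, 91.4 and 95.3 CPM in 15Q, 102, 88.3 and 107 CPM in 84Q and between 92.6 and 101 CPM in 84Q+IGF-1. The groups overlapped, and 84Q differed from 15Q by a log2 fold change of 0.12, with a 95% confidence interval from -0.04 to 0.28 and an adjusted p of 0.379 in edgeR. Sod2 (chr17:13006846-13040063), the manganese enzyme of the mitochondrial matrix, had the narrowest spread of the members, an SD of 0.03 in log2 CPM over the 9 libraries. Its level was 202, 192 and 193 CPM in 15Q and 192, 193 and 192 CPM in 84Q, and in 84Q+IGF-1 it was 196 CPM ± 4.34 (SD, n = 3). The interval of its log2 fold change ran from -0.13 to 0.08 in 84Q against 15Q and from -0.11 to 0.11 in 84Q+IGF-1 against 15Q, so that differences beyond about 1.1-fold lie outside it.

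Cat (chr2:103453849-103485160) encodes catalase, the peroxisomal enzyme that splits hydrogen peroxide into water and oxygen. Its level was 56.4, 55.7 and 56.1 CPM in 15Q, 55.1, 50.0 and 49.9 CPM in 84Q and 44.1, 46.2 and 45.3 CPM in 84Q+IGF-1. The 3 groups did not overlap, and their means were 56.1 CPM ± 0.357 (SD, n = 3), 51.7 ± 2.98 and 45.2 ± 1.01. In 84Q+IGF-1 against 15Q the log2 fold change was -0.31 (SE 0.06; adjusted p = 0.0158, edgeR), and it passed in each of the 9 fits that left out a library. In 84Q against 15Q it was -0.12 (interval -0.24 to 0.01; adjusted p = 0.286). Between 84Q+IGF-1 and 84Q it was -0.19 (interval -0.32 to -0.07), with an unadjusted p of 0.00577 in edgeR and an adjusted p of 0.969, which does not pass. Joined with 84Q, it gave -0.21 against 15Q (adjusted p = 0.0342), and this call was lost without 15Q replicate 2 (adjusted p = 0.140) or 15Q replicate 3 (0.168). The oligodendrocyte marker Cldn11 was also lower in 84Q+IGF-1 than in 15Q, at -0.41 on the log2 scale (adjusted p = 0.0445), and the markers of that list summed to 2812 to 3735 CPM against 3805 to 4106 CPM in 15Q. The liver marker sum, given above, was lower in all 6 libraries as well. All 3 libraries of 84Q+IGF-1 also lay below 15Q for the astrocyte markers Aqp4, at -0.28 on the log2 scale (adjusted p = 0.0732), Gdf10, at -0.36 (0.159), and Slc4a4, at -0.31 (0.127), of which Aqp4 passed. The other 4 of that list did not pass and went both ways, with Gjb6 at 0.19 (0.246) and all its 84Q+IGF-1 libraries above 15Q, Slc1a3 at 0.42 (0.313), Aldh1l1 at 0.03 (0.868) and Gfap at -0.28 (0.376). Between 84Q+IGF-1 and 84Q, the log2 fold changes of the 7 oligodendrocyte markers ran from -0.48 to -0.21. Of these, 6 had an unadjusted p under 0.05 in edgeR, where 905 of 19353 genes had, and none passed. The part of any of these marker differences in the level of Cat was not tested.

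Of the glutathione peroxidases, Gpx4 (chr10:80047166-80056439) was higher in 84Q. It had 126, 114 and 114 CPM in 15Q, 143, 141 and 148 CPM in 84Q and 148, 125 and 134 CPM in 84Q+IGF-1. All 84Q libraries lay above 15Q, whereas 84Q+IGF-1 replicate 2 lay just below 15Q replicate 1. The log2 fold change was 0.29 (SE 0.07; adjusted p = 0.0542, edgeR) in 84Q and 0.20 (interval 0.06 to 0.35; adjusted p = 0.154) in 84Q+IGF-1 against 15Q. The call in 84Q was lost without replicate 2 (adjusted p = 0.1998) or 3 (0.212) of 15Q or replicate 3 of 84Q (0.165), while the log2 fold change stayed between 0.26 and 0.34. Both groups against 15Q gave 0.24 (adjusted p = 0.0396), lost without 15Q replicate 2 (0.174) or 15Q replicate 3 (0.202). Between 84Q+IGF-1 and 84Q it was -0.08 (interval -0.23 to 0.06). Gpx1 (chr9:108338903-108340343), the cytosolic peroxidase for hydrogen peroxide, was between 22.2 and 23.9 CPM in 15Q, between 24.1 and 27.2 CPM in 84Q and between 22.2 and 25.4 CPM in 84Q+IGF-1. Its 84Q libraries lay above 15Q by a small margin, but the log2 fold change of 0.12 had an interval from -0.06 to 0.30 and an adjusted p of 0.461.

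The peroxiredoxins reduce peroxides through reactive cysteines that thioredoxin restores. Prdx2 (chr8:84969587-84974834), a cytosolic form abundant in neurons and red blood cells, had 63.5, 60.0 and 60.2 CPM in 15Q, 72.7, 74.4 and 81.7 CPM in 84Q and 80.3, 77.6 and 72.2 CPM in 84Q+IGF-1. The 15Q group lay below every other library, and the 84Q and 84Q+IGF-1 groups overlapped. The log2 fold change was 0.32 (SE 0.06; adjusted p = 0.0220, edgeR) in 84Q and 0.32 (SE 0.06; adjusted p = 0.0158) in 84Q+IGF-1 against 15Q. The call in 84Q+IGF-1 passed in all 9 fits that left out a library, and that in 84Q was lost without 15Q replicate 2 (adjusted p = 0.122) or 15Q replicate 3 (0.104). The difference between 84Q+IGF-1 and 84Q was 0.01, with an interval from -0.12 to 0.14. Both groups against 15Q gave 0.32 (adjusted p = 0.00537), and it passed in all 9 such fits. Red blood cell markers were highest in 15Q replicate 2 (213 CPM), in which Prdx2 was lowest. Of the 7 Purkinje cell markers, Pcp2 was higher along with Prdx2, by 0.34 in 84Q (adjusted p = 0.0936, edgeR) and 0.33 with both groups together (0.0502), with 121 to 134 CPM in 15Q and 142 to 188 CPM in the 6 others, and in 84Q+IGF-1 alone it was at 0.33 (0.121) and did not pass. The other 6 did not pass, nor did any of the 7 granule cell markers, and the sum of the Purkinje cell markers overlapped between the groups. The part of red blood cells or Purkinje cells in the level of Prdx2 was not tested.

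Prdx5 (chr19:6906697-6910106) had 80.3, 87.5 and 84.4 CPM in 15Q, 96.6, 92.2 and 99.7 CPM in 84Q and 99.1, 89.7 and 103 CPM in 84Q+IGF-1. Its 15Q libraries lay below all others. The log2 fold change was 0.19 (interval 0.06 to 0.33; adjusted p = 0.128, edgeR) in 84Q and 0.21 (interval 0.08 to 0.34; adjusted p = 0.116) in 84Q+IGF-1 against 15Q, neither of which passed. Both groups against 15Q gave 0.20 (SE 0.05; adjusted p = 0.0565), a call that was lost without replicate 1 (0.130), 2 (0.126) or 3 (0.197) of 15Q. Prdx3 (chr19:60864051-60874556), the peroxiredoxin of the mitochondrial matrix, was between 22.8 and 24.6 CPM in 15Q, between 23.8 and 28.2 CPM in 84Q and between 25.2 and 28.1 CPM in 84Q+IGF-1. All 84Q+IGF-1 libraries lay above 15Q, but its log2 fold changes of 0.17 and 0.15 had adjusted p-values of 0.314 and 0.396.

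The NRF2 targets were the lowest members and the most variable. Nqo1 (chr8:107388225-107403206), a quinone reductase, had 6.91, 8.28 and 6.88 CPM in 15Q, 6.93, 8.08 and 5.64 CPM in 84Q and 5.57, 6.06 and 7.12 CPM in 84Q+IGF-1. The groups overlapped, and its SD in log2 CPM over the 9 libraries, 0.20, was the largest of the members. The intervals of its log2 fold change ran from -0.42 to 0.24 in 84Q and from -0.56 to 0.10 in 84Q+IGF-1 against 15Q. Hmox1 (chr8:75093621-75100589), heme oxygenase 1, had 4.72, 5.13 and 5.21 CPM in 15Q, 4.96, 3.64 and 4.56 CPM in 84Q and 3.81, 4.06 and 4.11 CPM in 84Q+IGF-1. All 84Q+IGF-1 libraries lay below 15Q, and the log2 fold change of -0.33 (interval -0.64 to -0.03) had an adjusted p of 0.246, whereas in 84Q it was -0.19 (interval -0.50 to 0.11; adjusted p = 0.485). At 99 to 403 counts for Nqo1 and 80 to 305 for Hmox1 per library, these intervals were wider than those of the other members.

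A further fit left out the 3 libraries high in choroid plexus markers, 15Q replicates 1 and 3 and 84Q replicate 2. It leaves 1 library in 15Q, which is assumed to vary like the others, and no member passed in it. The sizes stayed close to those of the full fit: for Prdx2 0.37 in 84Q (adjusted p = 0.348) and 0.36 in 84Q+IGF-1 against 15Q (0.292), for Gpx4 0.35 in 84Q (0.363) and for Cat -0.29 in 84Q+IGF-1 against 15Q (0.456). Both groups against 15Q gave 0.36 for Prdx2 (0.222), 0.30 for Gpx4 (0.331), -0.19 for Cat (0.585) and 0.17 for Prdx5 (0.612).

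The rest of the antioxidant system was followed in 66 other genes in 6 lists, and 65 of them passed the filter on low counts. In 84Q against 15Q, 4 of 65 were higher and 1 was lower, where 1.54% of all genes were higher and 3.25% lower, with a median log2 fold change of 0.06. In 84Q+IGF-1 against 15Q, 3 were higher and 2 lower (1.04% and 2.63% of all genes), with a median of -0.02, and in 84Q+IGF-1 against 84Q none passed (3 of 65 had an unadjusted p under 0.05 in edgeR, and DESeq2 called 0). With both groups together, 9 were higher and 2 lower (3.64% and 6.11% of all genes), with a median of 0.02. These shares are also the background of the counts in each list. With the fold of 1.5, only Slc7a11 of the 65 was called, in each of the 3 comparisons with 15Q.

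**Figure D5:**
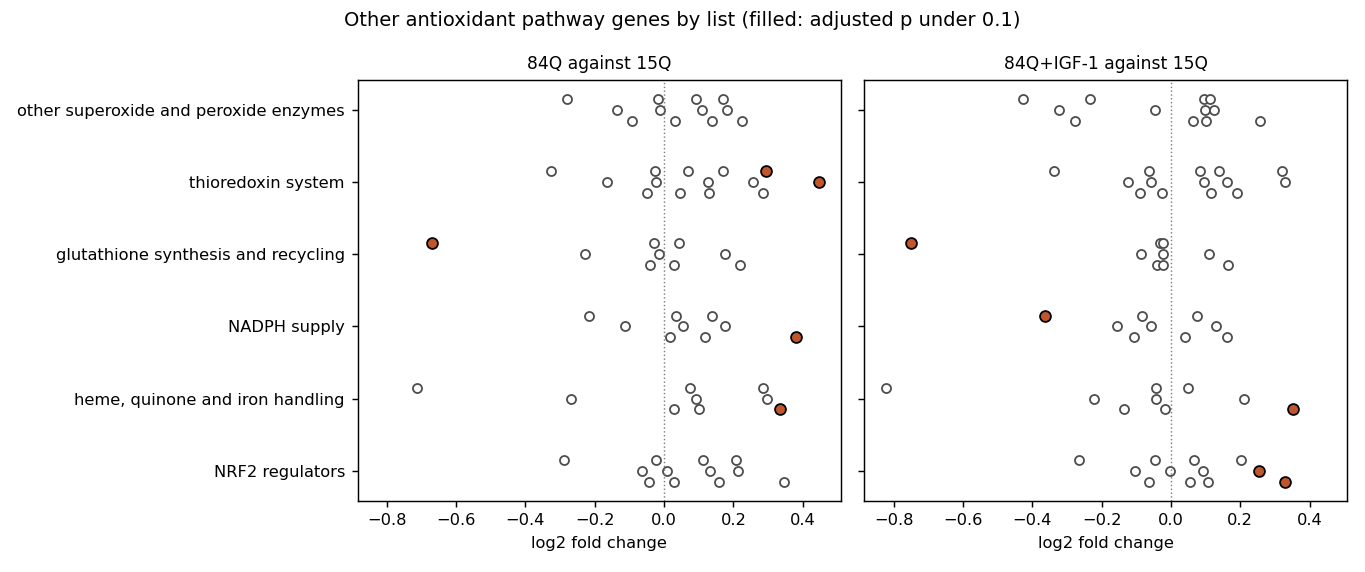
Log2 fold changes of 65 other antioxidant pathway genes, 1 point per gene by list, in the comparisons of 84Q and of 84Q+IGF-1 with 15Q, where filled points mark an adjusted p under 0.1. Slc7a11 is the filled point at -0.67 and -0.75, and the other filled points lie between -0.36 and 0.45.

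Among glutathione synthesis and recycling genes, Slc7a11, the cystine importer that feeds glutathione synthesis, was lower in the groups with the expanded repeat. Its level was 28.4, 28.3 and 36.8 CPM in 15Q, 22.1, 22.0 and 14.6 CPM in 84Q and 16.4, 19.3 and 20.0 CPM in 84Q+IGF-1, without overlap with 15Q. The astrocyte markers Aqp4, Gdf10 and Slc4a4, given above, lay below 15Q in the same 6 libraries, and their part in its level was not tested. The log2 fold change was -0.67 (SE 0.16; adjusted p = 0.0542, edgeR) in 84Q and -0.75 (SE 0.16; adjusted p = 0.0335) in 84Q+IGF-1 against 15Q. The first was lost without replicate 2 or 3 of 15Q or replicate 3 of 84Q (adjusted p up to 0.216), the second without replicate 3 of 15Q or replicate 1 of 84Q+IGF-1 (up to 0.149), and the value with both groups together, -0.71 (adjusted p = 0.0127), passed in all 9 fits. The other 8 genes of the list did not pass in either group alone, among them Slc3a2, the partner chain of Slc7a11 and the highest of the list at 144 TPM ± 7.02, with log2 fold changes of 0.04 and -0.02. Ggt7 (115 TPM ± 7.64) passed with both groups together at 0.19 (adjusted p = 0.0736), in 4 of the 9 fits that left out a library.

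Of 14 thioredoxin system genes, the glutaredoxins Glrx5, a mitochondrial protein of iron-sulfur cluster assembly, and Glrx, a cytosolic one, were higher in 84Q. Glrx5 rose from 15.9 ± 1.02 (SD, n = 3) in 15Q to 21.7 CPM ± 2.64, by 0.45 on the log2 scale (adjusted p = 0.0394, edgeR), and the call was lost without replicate 3 of either group (up to 0.154). Glrx rose from 18.4 ± 0.83 to 22.6 CPM ± 0.71, by 0.29 on that scale (adjusted p = 0.0940). It passed in 2 of the 9 fits that left out a library, both without an 84Q+IGF-1 library, a group not compared here. The call was lost without any single library of 15Q or 84Q. With both groups together, Glrx5 (0.38), Srxn1 (0.18), which repairs oxidised peroxiredoxins, and Txnrd2 (0.31), the mitochondrial thioredoxin reductase, were higher, with adjusted p-values of 0.0280, 0.0668 and 0.0894. They passed in 8, 6 and 3 of the 9 fits that left out a library. Srxn1 (99.6 TPM ± 5.89) and Sesn1 (97.1 TPM ± 4.31) had the highest levels of the list.

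Of 9 tested genes that supply NADPH, Taldo1, a transaldolase of the pentose phosphate pathway, was higher in 84Q, at 45.6 CPM ± 4.65 against 34.97 ± 1.11 in 15Q (log2 fold change 0.38; adjusted p = 0.0386, edgeR), a call lost without replicate 2 or 3 of 15Q or replicate 3 of 84Q (up to 0.1504). Idh1, the cytosolic isocitrate dehydrogenase, was lower in 84Q+IGF-1, at 19.9 CPM ± 1.53 against 25.6 ± 0.694 (log2 fold change -0.36; adjusted p = 0.0414), a call lost without replicate 2 or 3 of 15Q or replicate 2 of 84Q+IGF-1 (up to 0.181). With both groups together Taldo1 was at 0.27 (adjusted p = 0.0525) and Idh1 at -0.29 (0.0359), and both calls were lost without 15Q replicate 2 or 15Q replicate 3. G6pdx (79.8 TPM ± 4.07), the first enzyme of that pathway, did not pass. Nnt, the mitochondrial transhydrogenase, was not tested and had 2 to 11 counts per library.

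Mt3, the brain metallothionein that binds zinc and copper, was the gene of these lists with the smallest adjusted p. Its level was 62.2, 61.3 and 60.9 CPM in 15Q, 80.8, 75.3 and 76.5 CPM in 84Q and 79.4, 77.6 and 78.2 CPM in 84Q+IGF-1, with 15Q apart from all others. The log2 fold change was 0.34 (SE 0.05; adjusted p = 0.00262, edgeR) in 84Q and 0.35 (SE 0.05; adjusted p = 0.00168) in 84Q+IGF-1 against 15Q, and both passed in all 9 fits that left out a library. It was among 9 genes of heme, quinone and iron handling, of which Fth1 (846 TPM ± 92.5), a ferritin chain, and Mt1 (300.4 TPM ± 43.1) had the highest levels and did not pass in either group. Ftl1, the other ferritin chain, passed with both groups together at 0.25 (adjusted p = 0.0793), in 3 of the 9 fits.

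Of 12 NRF2 regulators none passed in 84Q, and Mafg, a small partner of NRF2, and Park7, a redox-sensitive protein, were higher in 84Q+IGF-1. Nfe2l2 itself was at -0.29 in 84Q (adjusted p = 0.195, edgeR) and -0.26 in 84Q+IGF-1 (0.248) against 15Q. Its inhibitor Keap1 was at 0.21 (0.1565) and 0.11 (0.485), and neither gene passed. Mafg was at 104 CPM ± 10.3 against 82.5 ± 5.47 in 15Q (log2 fold change 0.33, adjusted p = 0.0780, edgeR) and Park7 at 59.9 CPM ± 4.06 against 50.3 ± 0.51 (0.25, adjusted p = 0.0692). Each passed in 4 of the 9 fits that left out a library: those without an 84Q library, a group not compared here, and 1 more. That was the fit without 84Q+IGF-1 replicate 1 for Mafg and replicate 2 for Park7. Both calls were lost without any single 15Q library. Their values with both groups together were 0.24 (adjusted p = 0.0835) and 0.23 (0.0401). Sqstm1 (359 TPM ± 16.4) and Nfe2l1 (236 TPM ± 10.1) had the highest levels of the list, and neither passed. Over the 3 comparisons with 15Q these 65 genes gave 21 calls at an adjusted p under 0.1. Of these, 17 were lost without 15Q replicate 3 (adjusted p from 0.144 to 0.313), all but those of Mt3 and that of Slc7a11 with both groups together. Leaving out 15Q replicate 2 lost 14 of the 21, and 15Q replicate 1 lost 5. Leaving out 84Q replicate 3 lost 9, replicates 1 and 2 of 84Q lost 1 each, and each 84Q+IGF-1 library lost 5 or 6. In the fit without the libraries high in choroid plexus markers none of the 65 genes passed, with an adjusted p of 0.234 for Mt3 in 84Q and 0.148 in 84Q+IGF-1 against 15Q. None of the 12 other superoxide and peroxide enzymes passed in any comparison, including Prdx1 (83.7 TPM ± 6.73) and Prdx6 (71.2 TPM ± 5.91).

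For Nqo1, the member that varied most over the 9 libraries, the tested genes with the most similar centred log2 CPM were Dnhd1, Plekhg2 and Gm15787, with root mean square differences of 0.06, 0.08 and 0.08.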

How the data were processed

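Cerebellar RNA of 9 mice (3 per group, grouped by the sample labels) was sequenced with a strand-specific kit as paired-end 150 bp reads. The authors demultiplexed the reads with bcl2fastq 2.20, trimmed them with Trimmomatic 0.36, aligned them to GRCm38.p6 with HISAT2 2.2.0 and counted them with featureCounts. The deposited values are raw read counts per gene, and the annotation of the counting is not given in the sources used here. Symbols, positions and exon lengths came from GENCODE vM21, in which 37681 of 37816 genes had a position.

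All 9 libraries entered 1 quasi-likelihood fit of edgeR 4.0.16 in R 4.3.3, after filterByExpr and TMM scaling. Benjamini-Hochberg adjustment covered the 19353 genes kept. The scripts were tested on simulated data. CPM and TPM were computed from the counts, with a prior count of 2 in log2 CPM. Library totals limit precision, most of all for Hmox1 and Nqo1.

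All 10 members were named, and of each pathway list the genes that were called, up to 3 per comparison at an adjusted p under 0.1 and the 2 with the highest TPM; marker genes that were called are given as counts other than Cd163 and Mrc1. Nnt, Nfe2l2, Keap1, Cldn11, Csf1r, Pcp2, Aqp4, Gdf10, Slc4a4, Slco1a4, Cdh5, Cldn5, Ly6c1, Gjb6, Aldh1l1, Gfap and Snhg11 were added after their values were seen. Some marker genes are not reported here. The members and lists were chosen with earlier results of these data known. Alternatives were DESeq2 1.42.0, its size factors, no filter, robust shrinkage, an adjusted p under 0.05, no fold threshold, a replicate block, Xist as a covariate, leaving out each library, and a fit to only the 2 groups compared. A fit without the libraries high in choroid plexus markers was added after seeing the data.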

Additional observations from a re-analysis of the deposited data

How the results depend on the processing

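No member was called with the fold of 1.5 in any fit that was run. Without the fold threshold, 2, 2 and 4 members passed in 84Q, in 84Q+IGF-1 and in both together against 15Q, and 5, 5 and 11 of the other pathway genes, against 1 in each with it. That pathway count ranged from 0 to 2 in 84Q, 0 to 1 in 84Q+IGF-1 and 0 to 2 in both together when a library was left out, was 0 in all 3 without the libraries high in choroid plexus markers, 0 in 84Q at an adjusted p under 0.05 and 2 in both together with no filter on low counts. Deviations of same-numbered replicates from their group means had correlations from -0.309 to 0.0788, and those of replicates with different numbers from -0.241 to 0.295. With group means of 3 libraries, these values cannot tell whether the numbers pair the mice. With the replicate block the pathway count was 0 in 84Q and 0 in 84Q+IGF-1. Without the fold threshold, the block lost the pathway calls of Glrx (adjusted p = 0.169) and Slc7a11 (0.133) in 84Q. In 84Q+IGF-1 it lost all but that of Mt3 (0.101 to 0.137). In both together it lost those of Taldo1, Ggt7, Srxn1, Ftl1, Mafg and Txnrd2 (0.113 to 0.164). Of the members only Prdx5 in both together lost its call (log2 fold change 0.20, adjusted p = 0.104). It lost it with Xist as a covariate too (0.19, adjusted p = 0.137). Prdx5 passed in 84Q with DESeq2 (adjusted p = 0.0895), no filter (0.0939) or only the 2 groups (0.0947), and in 84Q+IGF-1 with DESeq2 (0.0567) or no filter (0.0512). Gpx4 passed in 84Q+IGF-1 with DESeq2 (0.0947) or no filter (0.0733). At an adjusted p under 0.05, Gpx4 in 84Q and Prdx5 in both together did not pass. The cause of these changes was not tested. DESeq2 called 1503 genes at an adjusted p under 0.1 in 84Q and 1251 in 84Q+IGF-1 against 15Q, where edgeR called 928 and 711.

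Signs turned only for log2 fold changes near 0 that passed in no fit. For Sod2 it was 0.0047 in 84Q and 0.0188 in both together without the choroid plexus libraries, and in 84Q+IGF-1 against 15Q 0.0094 with DESeq2, 0.0027 with its size factors, 0.0041 with only the 2 groups and 0.0329 without those libraries. In 84Q+IGF-1 against 84Q it was -0.0064 for Prdx2 and -0.0103 for Prdx5 without them. With each library left out in turn, the ranges that crossed 0 were, in 84Q against 15Q, -0.035 to 0.0042 for Sod2 and -0.21 to 0.027 for Nqo1. In 84Q+IGF-1 against 15Q they were -0.014 to 0.029 for Sod2 and -0.0095 to 0.088 for Gpx1. Between 84Q+IGF-1 and 84Q they were -0.092 to 0.042 for Sod1, -0.025 to 0.060 for Prdx2, -0.093 to 0.027 for Prdx3 and -0.027 to 0.071 for Prdx5, and with both together, -0.022 to 0.017 for Sod2. Levels per length with TMM-scaled totals stayed within 1 SD for all 10 members, and those with the longest transcript stayed so for 2. With 3 mice per group, differences of the lowest members, Nqo1 and Hmox1, are resolved least.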
